A study of Mus musculus with 29 samples.

Results

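The core genes of the circadian clock were followed in RNA sequencing of the mouse aortic arch. They are 10 genes: Arntl, Clock, Npas2, Per1, Per2, Per3, Cry1, Cry2, Nr1d1 and Nr1d2. They were chosen by symbol, out of 51456 gene symbols in each library, with their values in the 3 groups and against the number in the library titles already known. All 10 were found in every library, and all 10 were among the 13510 genes tested, which reached 1 in no fewer than 9 libraries.

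The 29 libraries came from male C57BL/6 mice of a cardiovascular safety study of romosozumab, an antibody that blocks sclerostin, a secreted inhibitor of Wnt signalling. In the Scl-Ab group (10 libraries), mice lacking apolipoprotein E in all cells (ApoE KO) were infused with angiotensin II (AngII) from a subcutaneous pump and given the sclerostin antibody at 10 mg/kg weekly for 4 weeks. In the vehicle group (9 libraries), ApoE KO mice had the same AngII pump and received vehicle. In the WT group (10 libraries), wild-type mice received vehicle in the pump and by injection. The pump held AngII at 15.27 mg/mL and ran at 0.11 µL/hr. The labels give an age of 14 weeks for all 3 groups, all mice ate the same chow, and fat around the vessel was scraped away. Loss of Apoe and AngII infusion, which produces aneurysm and rupture in such mice, go together in both ApoE KO groups, so their effects cannot be told apart. The protocol speaks of 9 WT mice, and n = 10 in WT is the number of libraries. Labels give no time of day for the collection of the tissue.

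The clock of mammalian cells is a feedback loop of transcription. The proteins BMAL1 (encoded by Arntl) and CLOCK, or its relative NPAS2, form a pair that binds E-box sequences and activates the Per and Cry genes, whose products return to the nucleus and inhibit the pair. In an interlocked loop the pair also activates Nr1d1 and Nr1d2, which encode the REV-ERB repressors, and these repress Arntl through ROR response elements (ROREs). In most mouse tissues, the aorta included, RNA of Arntl and Npas2 is therefore high at the opposite time of day from RNA of Per3, Nr1d1 and Nr1d2, with Cry1 between them.

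Because members moved together across libraries, promoter sequence was read for them from RefSeq (GRCm38.p6), which held windows for 9 of the 10 genes. The 250 bases before an annotated start are shown for the 5 genes with a motif described below and for Arntl, which had none and ran against Per3 in its values. Arntl and Per1 have 2 annotated starts each in the table, and 1 window of each is shown. Capitals mark matches to an E-box (CACGTG), an E'-box (CACGTT or its reverse complement AACGTG) or a D-box (TTATGTAA or TTACATAA, the element bound by PAR bZIP factors), searched on both strands. In order they lie at chr4:151044666-151044915 (minus strand), chr10:85185055-85185304 (minus), chr11:69098699-69098948 (plus), chr11:98775378-98775627 (minus), chr2:92434070-92434319 (minus) and chr7:113207215-113207464 (plus). On GRCm38, with the annotation of GENCODE M21, the Arntl gene spans chr7:113207465-113314126 on the plus strand and Per3 chr4:151003652-151044665 on the minus strand.
Per3: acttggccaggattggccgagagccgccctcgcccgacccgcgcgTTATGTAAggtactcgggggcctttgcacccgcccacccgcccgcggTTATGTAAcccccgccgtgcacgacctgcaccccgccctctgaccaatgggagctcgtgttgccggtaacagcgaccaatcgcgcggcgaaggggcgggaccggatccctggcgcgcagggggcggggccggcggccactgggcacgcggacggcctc
Cry1: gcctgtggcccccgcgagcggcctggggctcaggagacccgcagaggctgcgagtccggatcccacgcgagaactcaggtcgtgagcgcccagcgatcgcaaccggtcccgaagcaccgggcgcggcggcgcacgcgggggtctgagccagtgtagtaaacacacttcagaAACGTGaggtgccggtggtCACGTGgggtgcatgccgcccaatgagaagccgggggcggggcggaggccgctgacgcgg
Per1: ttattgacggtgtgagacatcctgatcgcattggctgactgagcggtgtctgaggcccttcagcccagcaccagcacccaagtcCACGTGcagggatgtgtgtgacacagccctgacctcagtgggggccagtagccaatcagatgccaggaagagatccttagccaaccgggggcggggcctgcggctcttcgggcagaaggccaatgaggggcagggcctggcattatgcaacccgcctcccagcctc
Nr1d1: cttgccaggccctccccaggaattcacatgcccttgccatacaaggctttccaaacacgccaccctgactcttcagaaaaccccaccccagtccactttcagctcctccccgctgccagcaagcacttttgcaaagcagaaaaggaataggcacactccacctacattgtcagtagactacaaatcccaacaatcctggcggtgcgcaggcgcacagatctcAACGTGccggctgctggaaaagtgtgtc
Cry2: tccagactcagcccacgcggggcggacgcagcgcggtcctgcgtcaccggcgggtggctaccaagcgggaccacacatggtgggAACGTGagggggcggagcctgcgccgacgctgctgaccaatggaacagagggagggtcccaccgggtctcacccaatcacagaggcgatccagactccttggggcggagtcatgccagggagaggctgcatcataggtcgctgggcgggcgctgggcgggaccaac
Arntl: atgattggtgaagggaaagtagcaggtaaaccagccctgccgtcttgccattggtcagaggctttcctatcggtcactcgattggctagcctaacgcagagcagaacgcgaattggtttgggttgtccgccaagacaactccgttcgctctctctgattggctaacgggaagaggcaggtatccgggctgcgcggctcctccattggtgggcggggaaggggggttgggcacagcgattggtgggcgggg

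The Per3 window held 2 D-boxes, which start at positions -205 and -158 from its start, while this form of the D-box was found in 0.819% of 32851 promoter windows of the same length. Cry1 held an E-box and an E'-box that do not overlap, and the Per1 window shown held an E-box, while the other Per1 window, at chr11:69099902-69100151, had 0 matches. An E-box was found in 6.02% of all windows. An E'-box was found for Cry1, Cry2 and Nr1d1, against 3.85% of all windows. The other form of the D-box (TTACGTAA, 0.113% of windows), 2 forms of the RORE core (TAGGTCA, 2.23%, and TGGGTCA, 3.24%) and the cAMP response element (TGACGTCA, 1.55%) had 0 matches in the 13 windows of the members. These are matches of letters in short windows and not measured binding. Only exact letters in the 250 bases before a start were searched, and bases after the start were not. A window with 0 matches, as for Arntl, therefore does not show that the gene lacks an element.

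The values are FPKM-like: they are scaled by gene length, and 31.8 to 43.7 sequenced fragments made up 1 unit for a 2 kb gene, so depth was similar in all libraries. The members with the fewest fragments were Npas2 and Cry1. If the union of annotated exons is taken as length, the fewest in a library were 66.6 for Npas2, 77.0 for Cry1 and 108.5 for Arntl. Arntl also fell below 1, to 0.899 with Scl-Ab and 0.795 in WT. Apoe was at 3.32 to 12.5 in the 19 ApoE KO libraries and at 146 to 363 in the 10 WT libraries, in keeping with the labels. Sost, which encodes the target of the antibody, averaged 289 ± 118 (SD, n = 10) with Scl-Ab, 399 ± 141 (SD, n = 9) with vehicle and 655 ± 108 (SD, n = 10) in WT. In bulk tissue, fewer cells of a type and less RNA per cell cannot be told apart. No p is printed for a member, since the members were chosen with these comparisons in view. Whether a member passed in the fit over all genes is given below as a description only. Their differences are given on the log2(value + 1) scale with a standard error (SE) from limma, which understates the change of low genes.

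The activating arm was low with Scl-Ab. Arntl was lowest at 0.899, had a median of 1.56 and was highest at 4.94 in the 10 Scl-Ab libraries. In the 9 vehicle libraries it was 4.61, 10.0 and 22.7, and in the 10 WT libraries it was 0.795, 4.33 and 19.1 (lowest, median and highest). Of the Scl-Ab libraries 9 of 10 lay below every vehicle library, and the ranges met only through number 11. Mean Arntl was 2.19 ± 1.46 (SD, n = 10) in Scl-Ab libraries and 11.3 ± 5.54 (SD, n = 9) with vehicle, a log2 difference of -1.94 (SE 0.42) between them. WT averaged 7.29 ± 7.49 (SD, n = 10), and its SD exceeded its mean.

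Npas2, the partner that can stand in for CLOCK, followed Arntl. It ranged from 0.736 to 2.55 with Scl-Ab, from 1.84 to 16.8 with vehicle and from 1.102 to 14.2 in WT, and it averaged 1.23 ± 0.54 (SD, n = 10) with Scl-Ab, 6.66 ± 4.41 (SD, n = 9) with vehicle and 5.16 ± 4.15 (SD, n = 10) in WT. The log2 difference of Scl-Ab from vehicle was -1.62 (SE 0.32), and 9 of 10 Scl-Ab libraries lay below every vehicle library. Clock itself, which varies less over the day than Arntl in most tissues, moved the same way over a narrower range. It averaged 8.40 ± 1.77 (SD, n = 10) with Scl-Ab, 13.6 ± 3.43 (SD, n = 9) with vehicle and 10.0 ± 3.19 (SD, n = 10) in WT, a log2 difference of Scl-Ab from vehicle of -0.63 (SE 0.15). Vehicle number 5 held the highest values of all 29 libraries for Arntl, Npas2 and Clock.

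**Figure D1:**
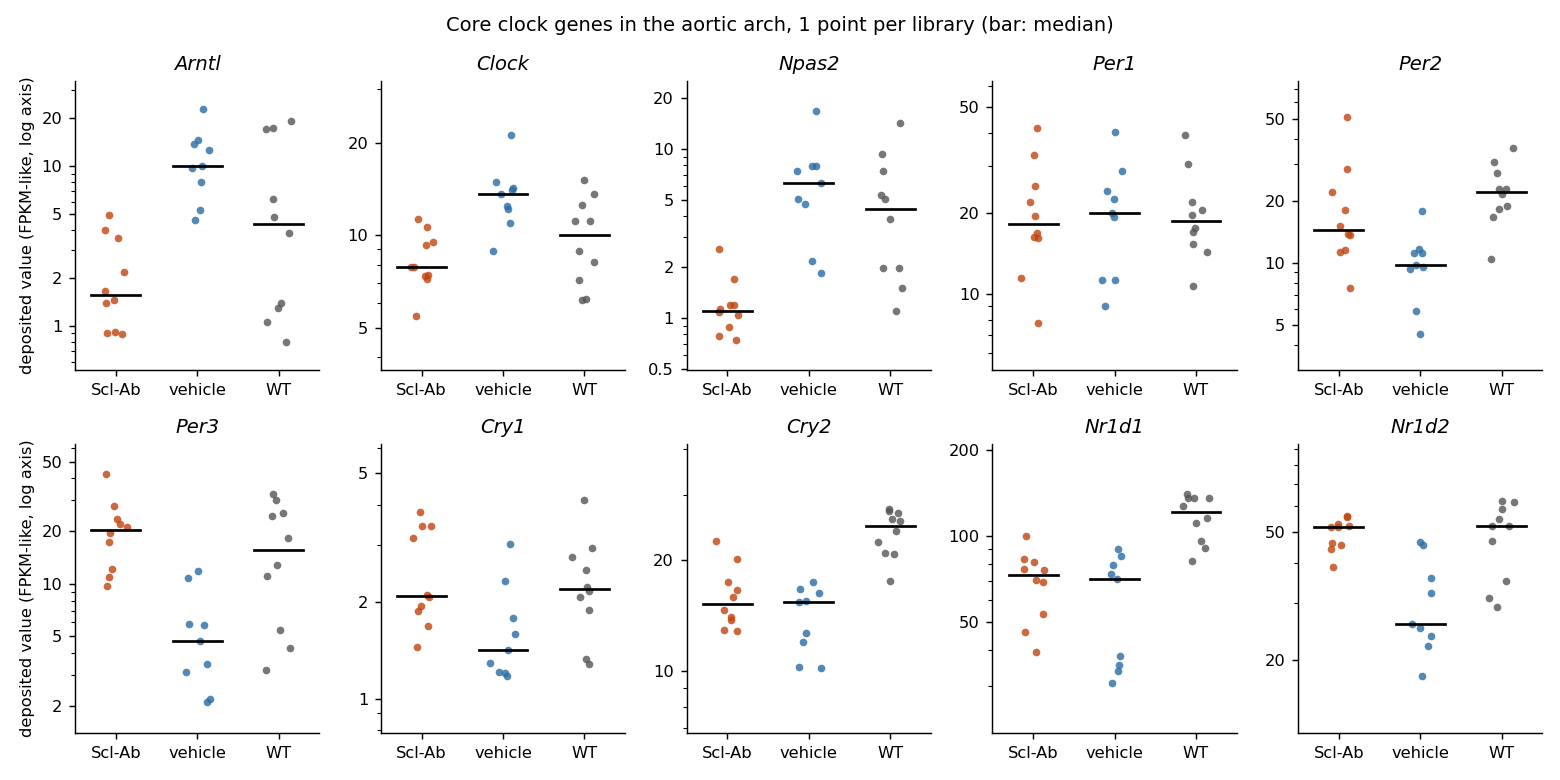
Values of the 10 clock genes in the Scl-Ab, vehicle and WT groups, 1 point per library on log axes of the deposited FPKM-like values, with a bar at the median. Medians of Arntl, Clock and Npas2 are lowest with Scl-Ab and highest with vehicle, those of Per3 and Nr1d2 are lowest with vehicle, and Per1 has close medians in the 3 groups.

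The Per genes, whose proteins inhibit the activating pair, differed among themselves. Per3 was lowest at 9.70, had a median of 20.3 and was highest at 42.1 in the Scl-Ab libraries, against 2.10, 4.68 and 11.9 with vehicle and 3.20, 15.5 and 32.4 in WT. Of the 10 Scl-Ab libraries 8 lay above every vehicle library, and the log2 difference was 1.78 (SE 0.37). Per2 averaged 19.2 ± 12.6 (SD, n = 10) with Scl-Ab, 10.1 ± 3.79 (SD, n = 9) with vehicle and 22.6 ± 7.38 (SD, n = 10) in WT. Its log2 difference was 0.76 (SE 0.26) for Scl-Ab minus vehicle and -1.10 (SE 0.26) for vehicle minus WT. Number 17, at 50.8, lay above the other Scl-Ab libraries, at 7.51 to 28.5. Per1, which also responds quickly to many signals besides the clock, averaged 21.04 ± 10.2 (SD, n = 10), 20.8 ± 9.89 (SD, n = 9) and 20.7 ± 8.45 (SD, n = 10) in the Scl-Ab, vehicle and WT groups. Its log2 differences were 0.02 (SE 0.27), -0.05 (SE 0.27) and -0.03 (SE 0.26) for Scl-Ab minus vehicle, vehicle minus WT and Scl-Ab minus WT, and their signs turned in 11 of 39, 6 of 34 and 6 of 34 alternatives.

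The Cry genes encode the stronger inhibitors of the pair. Cry1 was low throughout, at 2.49 ± 0.86 (SD, n = 10) with Scl-Ab, 1.67 ± 0.63 (SD, n = 9) with vehicle and 2.33 ± 0.83 (SD, n = 10) in WT. Cry2 showed another order: both ApoE KO groups were below WT. It ranged from 12.8 to 22.4 with Scl-Ab, from 10.2 to 17.4 with vehicle and from 17.5 to 27.5 in WT, so the vehicle and WT ranges did not overlap. Ranges of 16.8% of the 13510 tested genes did not overlap in that comparison, and Cry2 was 1 such gene among the 10. The log2 difference of Cry2 was -0.73 (SE 0.11) for vehicle minus WT and -0.55 (SE 0.11) for Scl-Ab minus WT, and 8 of 10 Scl-Ab libraries lay below every WT library.

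The REV-ERB genes were both lower with vehicle than in WT and parted from each other with Scl-Ab. Nr1d1 was below WT in both ApoE KO groups: it averaged 69.7 ± 18.5 (SD, n = 10) with Scl-Ab, 59.9 ± 24.7 (SD, n = 9) with vehicle and 117 ± 21.4 (SD, n = 10) in WT. Of the 9 vehicle libraries 4 lay at 30.8 to 38.1 and the other 5 at 71.1 to 90.2. The log2 difference was -0.77 (SE 0.20) for Scl-Ab minus WT, -1.06 (SE 0.20) for vehicle minus WT and 0.29 (SE 0.20) for Scl-Ab minus vehicle. Nr1d2 ranged from 38.8 to 56.0 with Scl-Ab, from 17.9 to 46.3 with vehicle and from 29.3 to 62.2 in WT, and 6 of 10 Scl-Ab libraries lay above every vehicle library. Its mean was lowest with vehicle, at 49.4 ± 5.51 (SD, n = 10) with Scl-Ab, 30.6 ± 10.2 (SD, n = 9) with vehicle and 48.4 ± 12.4 (SD, n = 10) in WT. The log2 difference was 0.73 (SE 0.16) for Scl-Ab minus vehicle, -0.66 (SE 0.16) for vehicle minus WT and 0.07 (SE 0.15) for Scl-Ab minus WT.

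**Figure D2:**
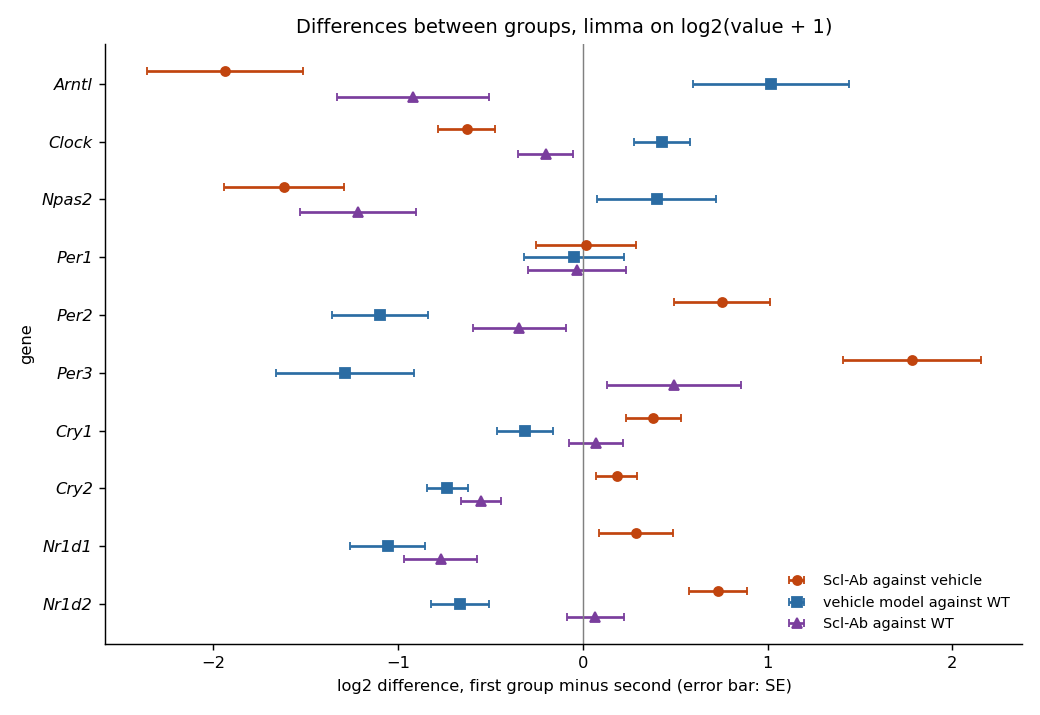
Log2 differences of the 10 genes from limma on log2(value + 1), first group minus second, with the SE as error bar, for Scl-Ab against vehicle, vehicle against WT and Scl-Ab against WT. Arntl, Clock and Npas2 lie left of 0 for Scl-Ab against vehicle and right of 0 for vehicle against WT, Per2, Per3 and Nr1d2 lie on the other side of 0 in each, and Per1 lies at 0.

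In the fit over all genes, 5 of the 10 members passed an adjusted p under 0.05 for Scl-Ab against vehicle: Per3 and Nr1d2 as higher, and Arntl, Clock and Npas2 as lower. Of the 13510 tested genes 7.44% passed, 2.64% as higher and 4.8% as lower. For vehicle against WT, 2 passed as higher (Arntl and Clock) and 5 as lower (Per2, Per3, Cry2, Nr1d1 and Nr1d2), where 53.7% of tested genes passed, 22.7% as higher and 31% as lower. For Scl-Ab against WT, 3 passed, all as lower (Npas2, Cry2 and Nr1d1), where 50.4% of tested genes passed, 19.8% as higher and 30.5% as lower. Each pair of comparisons shares the libraries of a group, so their values are not independent of each other, and nothing is read from these counts because the members were chosen with them known. Arntl in vehicle against WT (log2 difference 1.02, SE 0.42) stopped passing without any 1 of 12 libraries (vehicle numbers 1, 2, 5, 6, 7 and 9, and WT numbers 24 to 29), with differences of 0.84 to 1.03. It also stopped passing with no filter on low values and in a fit of the 2 groups alone, at 1.02 in both. Clock in the same comparison stopped passing without vehicle number 5 (0.35). Arntl passed for Scl-Ab against WT without Scl-Ab number 11 or any 1 of WT numbers 26 to 29 (-1.03 to -1.10). Per2 passed for Scl-Ab against vehicle without Scl-Ab number 11 (0.87) or vehicle number 4 (0.86). Cry1 passed for vehicle against WT without vehicle number 5, WT number 21 or WT number 23 (-0.36 to -0.39).

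Within WT, most members ran with the number in the library title, whose meaning the labels do not give. In order of number from 20 to 29, Arntl was 17.4, 17, 19.1, 6.26, 4.84, 3.82, 1.40, 1.29, 0.795 and 1.06. Per3 was 4.28, 5.45, 3.20, 11.1, 12.7, 18.2, 24.3, 25.4, 29.99 and 32.4 in the same order. The WT libraries therefore spanned 23.98-fold in Arntl and 10.2-fold in Per3, and the 3 lowest numbers held the 3 highest Arntl and the 3 lowest Per3 values. As a description, Spearman's rho with the number over the 10 WT libraries was -0.95 for Arntl, -0.95 for Clock, -0.93 for Npas2, 0.96 for Per3 and 0.90 for both Per2 and Nr1d2. Thus 6 of the 10 members had a rho of size 0.9 or more, where 2.69% of tested genes did, and the same 6 were those at 0.8 or more, where 9.07% of tested genes were. The rank correlation was lower for Cry1 (0.65), Cry2 (0.48), Nr1d1 (0.47) and Per1 (0.20).

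The Scl-Ab libraries, numbers 10 to 19, also ran in order of number. Arntl was 4.02, 4.94, 2.17, 3.56, 1.67, 1.46, 0.918, 0.907, 0.899 and 1.40 in order of number, with a rho of -0.90, and rho was 0.84 for Per3 and 0.77 for Per2. Numbers 10 to 13 and 14 to 19 are 2 ranges of the title code, described below. Arntl was at 2.17 to 4.94 in the first and 0.899 to 1.67 in the second. A single rho does not separate a step between the ranges from an order within them. Nr1d1 went the other way from WT in this group, with 101, 81.1, 83.7, 70.4, 76.2, 69.5, 76.7, 39.5, 53.4 and 46.4 and a rho of -0.87. A rho of size 0.8 or more was seen for 4 of the 10 members (Arntl, Clock, Nr1d1 and Per3), where 6.82% of tested genes had one, and of size 0.9 or more for Arntl alone among the 10, where 1.08% did. In the vehicle group rho was -0.22 for Arntl and 0.18 for Per3, and 0 of 10 members reached 0.8, where 1.81% of tested genes did and 0.333% reached 0.9. The difference of these relations between groups was not tested.

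**Figure D3:**
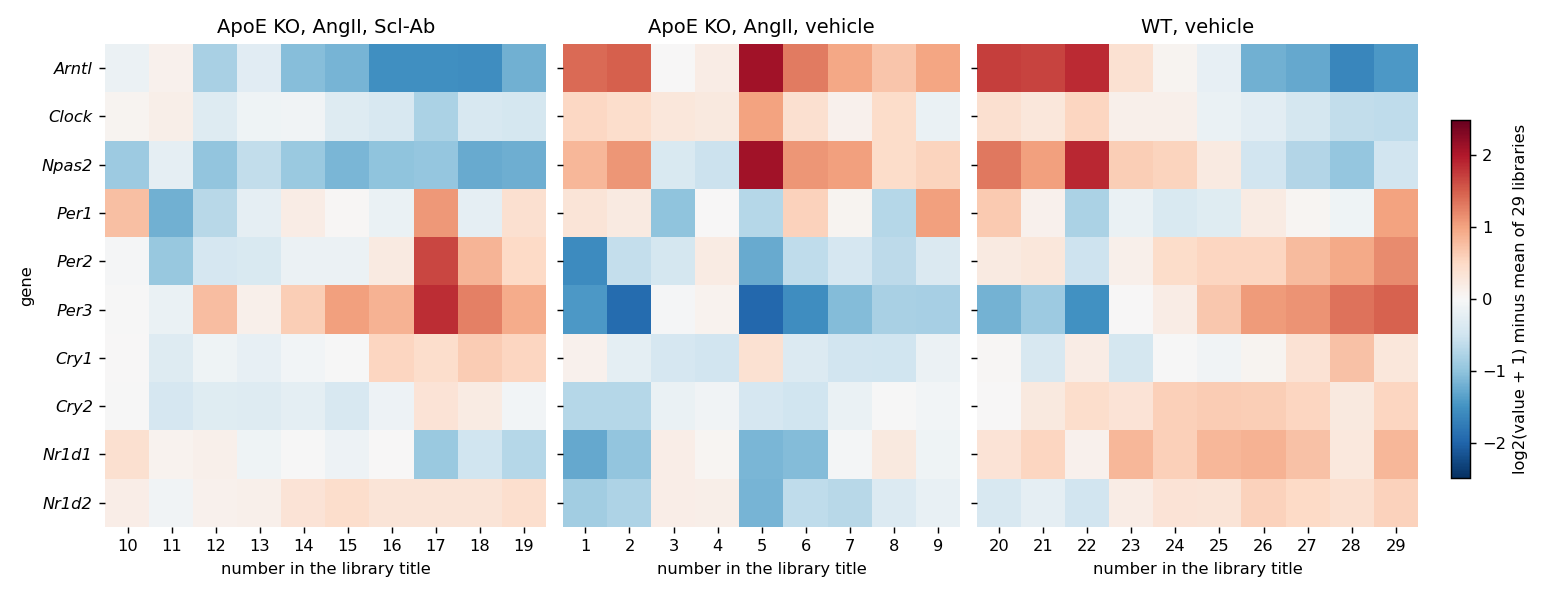
Each cell is log2(value + 1) of a clock gene in 1 library minus the mean over all 29 libraries, with libraries of the Scl-Ab, vehicle and WT groups in order of the number in their titles. In WT, red gives way to blue for Arntl, Clock and Npas2 between numbers 20 and 29 and blue gives way to red for Per3, and the vehicle group shows 2 such steps, at numbers 1 to 4 and 5 to 9.

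The titles also carry a 4-digit code. Its last 2 digits fall in the ranges 12 to 15 and 27 to 33 in both ApoE KO groups and in the range 1 to 10 in WT, and the title number follows their order. Within the vehicle group, libraries of the range 12 to 15 had Arntl values of 13.8, 14.7, 4.61 and 5.29 in code order, and those of the range 27 to 33 had 22.7, 12.6, 9.79, 8.02 and 10.0. Per3 was 3.48, 2.18, 10.8 and 11.9 in the lower range and 2.10, 3.12, 4.68, 5.87 and 5.77 in the upper range. Arntl was thus higher at the start of each range and Per3 lower, an order that a single rho over numbers 1 to 9 does not show. This split was read after the values were seen, and 4 or 5 libraries a range are too few for a correlation.

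The differences between Scl-Ab and vehicle libraries were smaller in the lower range. In codes 12 to 15, Arntl averaged 3.67 ± 1.15 (SD, n = 4) in Scl-Ab libraries and 9.59 ± 5.37 (SD, n = 4) with vehicle, a log2 difference of -1.06 (SE 0.38). In codes 27 to 33 it averaged 1.21 ± 0.34 (SD, n = 6) in Scl-Ab libraries and 12.6 ± 5.88 (SD, n = 5) with vehicle, a log2 difference of -2.55 (SE 0.22). Per3 differed by 0.99 (SE 0.47) in the lower and 2.34 (SE 0.25) in the upper range, and Nr1d2 by 0.41 (SE 0.25) and 0.97 (SE 0.14). Npas2 differed by -0.94 (SE 0.39) in the lower and -2.13 (SE 0.24) in the upper range, and Clock by -0.42 (SE 0.12) and -0.76 (SE 0.19). Per2 differed by 0.16 (SE 0.36) in the lower and 1.16 (SE 0.30) in the upper range, while for Nr1d1 the lower range had the larger value, 0.64 (SE 0.33) against 0.05 (SE 0.28). In the lower range alone limma called 0 of the 13510 tested genes, and 890 had an unadjusted p under 0.05. The difference between the ranges was not tested. No library of WT falls in either range, so code range and group cannot be told apart there.

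**Figure D4:**
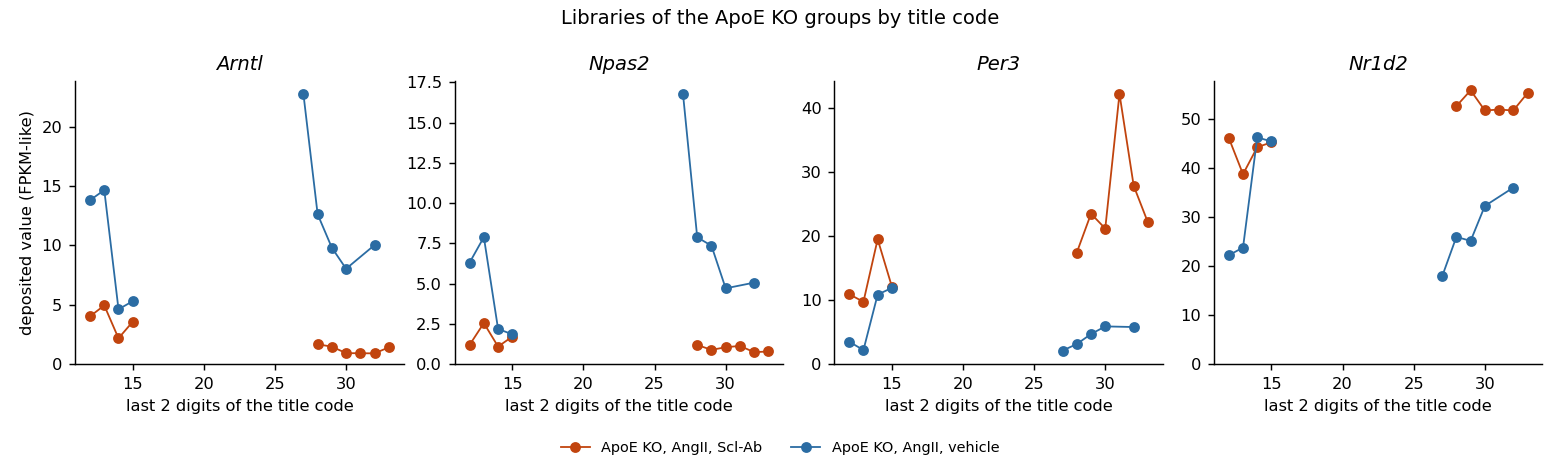
Deposited values of Arntl, Npas2, Per3 and Nr1d2 against the last 2 digits of the title code, for the Scl-Ab and vehicle groups, with lines joining the libraries of 1 code range. Vehicle libraries start each range high in Arntl and Npas2 and low in Per3 and Nr1d2, while Scl-Ab libraries of codes 27 to 33 stay between 0.899 and 1.67 in Arntl.

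Most members ran with or against Arntl within each group. On deviations from the group mean over the 29 libraries, Pearson's r with Arntl was 0.92 for Npas2 and 0.85 for Clock, and -0.96 for Per3, -0.86 for Nr1d2 and -0.68 for Per2, given as a description with no test. Within the Scl-Ab, vehicle and WT groups, r between Arntl and Per3 was -0.92, -0.96 and -0.99 (n = 10, 9 and 10). These points share the order by number seen in WT and Scl-Ab. In the vehicle group, where r was of similar size, they share the order within code ranges. Cry1, Nr1d1 and Per1 did not keep 1 sign. In the Scl-Ab, vehicle and WT groups, r of Cry1 with Arntl was -0.83, 0.78 and -0.59, and that of Nr1d1 was 0.65, -0.84 and -0.50. For Per1 it was -0.39, 0.23 and -0.27, and for Cry2, which kept its sign, -0.55, -0.66 and -0.51.

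The log2(value + 1) of Arntl minus that of Per3 places each library on 1 axis. It ran from -4.50 to -0.85 (median -3.02) in the Scl-Ab libraries, from -1.08 to 2.94 (median 0.93) with vehicle and from -4.11 to 2.26 (median -1.62) in WT. It was above 0 in 0 of 10 Scl-Ab, 7 of 9 vehicle and 3 of 10 WT libraries. WT libraries thus covered most of the range of both ApoE KO groups, and the vehicle libraries overlapped the Scl-Ab libraries only at numbers 3 and 4.

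**Figure D5:**
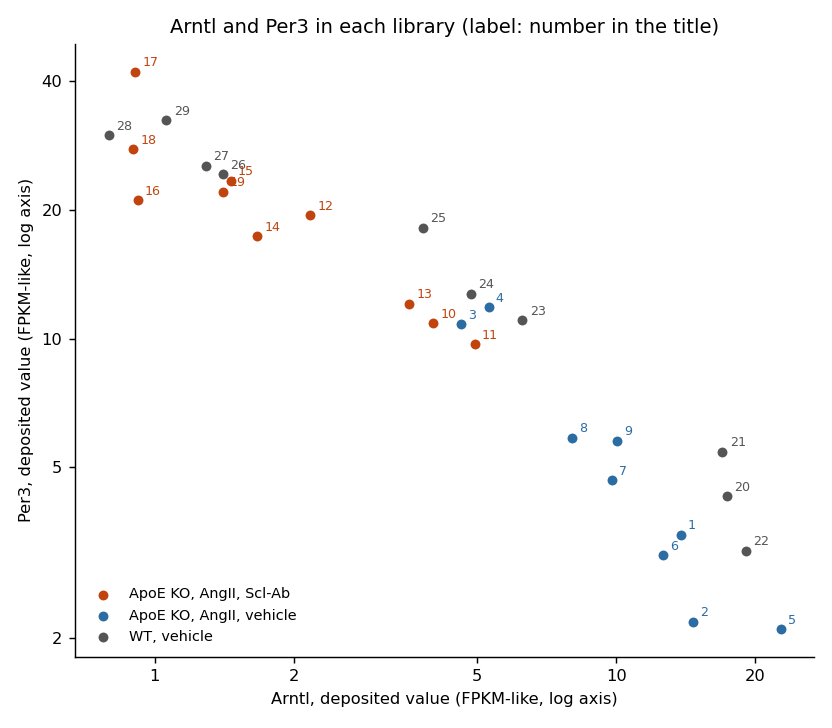
Per3 against Arntl in every library, deposited FPKM-like values on log axes, labelled with the number in the library title. All 29 libraries lie along 1 falling band, with the Scl-Ab libraries at up to 4.94 in Arntl, the vehicle libraries at 4.61 and above, and WT spread from 0.795 to 19.1. Vehicle number 5, at 22.7 in Arntl, and Scl-Ab number 17, at 42.1 in Per3, lie beyond the WT libraries.

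Of the tested genes outside the 10, those most like Arntl over the 29 libraries (deviations from group means) were Leo1 (r = 0.96), a subunit of the PAF1 transcription elongation complex, Crybg3 (r = 0.86), Thg1l (r = 0.84), Slc25a34 (r = 0.83) and Nfil3 (r = 0.82), a repressor that binds the same D-boxes as the PAR bZIP activators. Those most opposed to it were the tetraspanin gene Tspan4 (r = -0.94), Hlf (r = -0.91), Slc46a3 (r = -0.90), Dbp (r = -0.89) and Naa60 (r = -0.89). Of these 10 genes, 5 (Leo1, Nfil3, Tspan4, Hlf and Dbp) were on the network lists described next. Those lists were chosen with earlier results of these data known, so this overlap is no independent evidence. Leo1 averaged 3.43 ± 0.94 (SD, n = 10) with Scl-Ab, 6.52 ± 1.27 (SD, n = 9) with vehicle and 3.74 ± 2.04 (SD, n = 10) in WT.

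Other genes of the clock network were taken from 5 lists of 57 genes, of which 55 were tested and Rorb and Lonrf3 were too low. For Scl-Ab against vehicle 8 rose and 6 fell (limma adjusted p under 0.05), which is 25.5% of the 55, where 7.44% of all tested genes passed (2.64% as higher and 4.8% as lower). Their median log2 difference was 0.01, against -0.01 over all tested genes. With equal sums of values per library 7 rose and 2 fell, and with no filter on low values 6 rose and 3 fell. The lists hold genes that earlier results of these data had shown to differ. The counts, their direction and the adjusted p-values of listed genes, here and below, are therefore no independent evidence. Output genes made up most of the rises: 5 of 11 rose and 1 fell. Dbp, Tef and Hlf encode the PAR bZIP factors, D-box activators under direct control of the clock. Dbp averaged 141 ± 37.1 (SD, n = 10) in Scl-Ab libraries and 42.4 ± 37.2 (SD, n = 9) with vehicle (log2 difference 2.21, SE 0.50, limma adjusted p = 0.00953), and Tef (limma adjusted p = 0.0147) and Hlf (limma adjusted p = 0.0192) rose with it. Their antagonist Nfil3 fell by 1.59 on the log2 scale (SE 0.37, limma adjusted p = 0.0118).

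Leo1 fell (log2 difference -0.77, SE 0.18, limma adjusted p = 0.013), and Cys1, which encodes the ciliary protein cystin, rose (log2 difference 1.19, SE 0.23, limma adjusted p = 0.00452). The counts by list that follow stand against 2.64% of all tested genes that passed as higher and 4.8% as lower. Among 8 other transcription factors and repressors of the loops 1 rose (Bhlhe41, named after its value was seen) and 1 fell (Nfil3). Of 15 kinases, ubiquitin ligases and other enzymes acting on the clock proteins 1 rose and 2 fell. Csnk1e, a casein kinase that phosphorylates PER proteins, rose to 24.2 ± 1.85 (SD, n = 10) with Scl-Ab, against 20.6 ± 0.69 (SD, n = 9) with vehicle (limma adjusted p = 0.00779). Of 13 coregulators 1 rose and 2 fell, among them Tbl1x, a subunit of the corepressor complex that REV-ERB proteins recruit (log2 difference -0.24, SE 0.05, limma adjusted p = 0.00783). The call of Tbl1x ended with equal sums per library. Of the 8 input genes limma called 0, and 1 had an unadjusted p under 0.05. Within code range 12 to 15 none of the 8 named network genes was called by limma, and within 27 to 33 Csnk1e and Tbl1x were not. In the 16 libraries whose code digits occur in both groups, a subset chosen after seeing the data, Dbp, Tef and Tbl1x were not called.

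For vehicle against WT 8 network genes rose and 18 fell of 55. That is 47.3%, below the 53.7% of all tested genes that passed, and the median log2 difference was -0.08 against -0.04 over all tested genes. With TMM scaling 10 rose and 14 fell. For Scl-Ab against WT 5 rose and 10 fell, or 27.3%, where 50.4% of all tested genes passed. The median was -0.02 against -0.06 over all tested genes, and with TMM scaling 7 rose and 6 fell. Timeless, whose product acts in DNA replication and has a debated role in the mammalian clock, passed as higher in both. It was at 1.44 ± 0.29 (SD, n = 10) in Scl-Ab libraries, 1.40 ± 0.32 (SD, n = 9) with vehicle and 0.67 ± 0.16 (SD, n = 10) in WT. All its WT values, 0.448 to 0.918, were below 1, so it reached the tested genes only through the ApoE KO libraries. Its calls are therefore a description, and no p is printed for it. Tbl1x fell in both (limma adjusted p = 5.46e-09 and 0.000219), as did Fmo2 and Hsf1, the heat shock transcription factor that links temperature to the clock. Sirt1, a deacetylase that acts on BMAL1 and PER2, also fell in both (limma adjusted p = 0.00571 and 0.000133). So did Cirbp, a cold-inducible RNA-binding protein (limma adjusted p = 0.000286 and 0.00219), and Ppp1cb (limma adjusted p = 5.6e-06 and 0.0256). Cirbp was at 39.5 ± 7.20 (SD, n = 10) in Scl-Ab libraries and 70.0 ± 14.8 (SD, n = 10) in WT. Hlf, Cys1 and Crtc2, a CREB coactivator, passed as lower for vehicle against WT (limma adjusted p = 3.2e-05 to 0.000252). Bhlhe40, a repressor at E-boxes (limma adjusted p = 0.00119), and Arntl2, a paralog of Arntl (limma adjusted p = 0.000666), passed as higher for Scl-Ab against WT.

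Marker genes of cell types were read beside these values. For Scl-Ab against vehicle 3 of 6 endothelial genes fell and 1 of 6 cardiac muscle genes rose (limma), where 2.64% of all tested genes passed as higher and 4.8% as lower. At an unadjusted p under 0.05 (limma) were 4 of the 6 endothelial and 5 of the 6 cardiac muscle genes. Limma called 0 of the genes on the other 8 lists, with 1 macrophage and 2 skeletal muscle genes at an unadjusted p under 0.05. Summed values of the endothelial genes were 63.4 to 177 with Scl-Ab, 142 to 192 with vehicle and 83.5 to 152 in WT, and those of the cardiac genes were 37.0 to 887 with Scl-Ab, 24.6 to 391 with vehicle and 21.9 to 390 in WT. For vehicle against WT all 7 macrophage genes rose and all 6 smooth muscle genes fell, and 4 of 6 endothelial, 3 of 6 fibroblast, 1 of 7 adipocyte and 1 of 4 tested nerve genes rose, while 1 of 3 tested erythrocyte and 1 of 3 tested skeletal muscle genes fell. Scl-Ab against WT also had all 7 macrophage genes higher and all 6 smooth muscle genes lower, with 4 of 6 cardiac, 3 of 7 adipocyte, 2 of 6 fibroblast, 1 of 6 endothelial and 1 of 4 tested nerve genes higher, and 2 of 3 tested erythrocyte and 1 of 3 tested skeletal muscle genes lower. Of all tested genes 22.7% passed as higher and 31% as lower for vehicle against WT, and 19.8% and 30.5% for Scl-Ab against WT. Macrophage sums were 589 to 1361 with Scl-Ab, 734 to 2478 with vehicle and 65.7 to 223 in WT. Smooth muscle sums were 5459 to 13186 with Scl-Ab, 4822 to 16400 with vehicle and 16991 to 20402 in WT.

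Along the title number, the mean log2 value of the endothelial genes had a rho of -0.95 in Scl-Ab, -0.07 in vehicle and 0.85 in WT, so these genes ran with Arntl in Scl-Ab and against it in WT. The adipocyte genes had a rho of 0.83 in WT, with sums of 185 to 2460, and the brown adipocyte genes had 0.70 there. In Scl-Ab rho was -0.78 for the cardiac, -0.73 for the nerve, -0.71 for the fibroblast and 0.71 for the smooth muscle genes. It was -0.65 for the brown adipocyte genes in Scl-Ab, and the remaining lists had a rho of smaller size in both groups. In the macrophage, adipocyte, cardiac, endothelial and smooth muscle lists 0 markers were below 1 throughout a group. The part of these cell types in the values of the clock genes was not tested.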

How the data were processed

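RNA of the aortic arch was sequenced as stranded mRNA libraries. The authors deposited 1 FPKM-like value per gene and library (the files call the unit FPKQ). DESeq2 1.10.1 and the build GRCm38 are named in the submitters' processing notes, with no role. For the aligner and the counter, nothing is stated (not given in the sources used here). The deposited values rescale each library: the 85th percentile lay at 6.99 to 7.30 and sums at 496126 to 678907.

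Groups came from the treatment labels. Nothing states that libraries came from separate mice, so p-values measure the spread between libraries. Values were tested as log2(value + 1) for 13510 genes at 1 or more in at least 9 libraries, with limma 3.58.1 (R 4.3.3, trend and robust), 3 group means in 1 fit, and Benjamini-Hochberg adjustment under 0.05. The fit was tested on simulated data. Values of 1 in a 2 kb gene stood for 31.8 to 43.7 fragments, estimated from steps between low values with GENCODE M21 lengths. Overlapping and antisense genes may share reads.

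The members and lists were chosen with earlier results of these data known. Calls of members are therefore a description and no test of them, and p-values of listed genes are no independent evidence. Named genes are the members, the 5 tested genes most and the 5 least like Arntl, up to 8 called network genes per comparison by smallest p, Apoe and Sost. Alternatives were another pseudocount, no filter, TMM or equal-sum scaling, 2-group fits, code range as a term or alone, leaving out each library and, chosen after seeing the data, libraries matched by title code. Rank correlations and motif searches used Python 3.11.15.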

Additional observations from a re-analysis of the deposited data

Results flagged for a closer look

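In each group of 9 or 10 libraries, the highest or lowest library was compared with its nearest neighbour by Dixon's criterion for 35 genes, 105 checks in all. These were the 10 clock genes, Apoe, Sost, the 17 named network genes and the 6 other genes most or least like Arntl. The check used the deposited values and not log2(value + 1). Chance gives about 1 in 20 only for normally distributed values, and whether these were so was not tested. On the deposited scale 12 values from 5 libraries stood apart, 3 of them in the 30 checks of the clock genes. Whether they also stand apart on the log2 scale was not tested. Each value below lay far from the rest of its group on the deposited scale.

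Scl-Ab number 17 had Per2 at 50.8, where the other 9 Scl-Ab libraries lay at 7.51 to 28.5. The same library had Arntl2 at 16.0 (others 3.57 to 8.98), Crtc2 at 26.7 (others 14.4 to 19.4) and Hsf1 at 25.5 (others 15.2 to 19.7). It also had the fewest fragments per unit of all 29 libraries, 31.8 for a 2 kb gene, and the lowest Clock of the Scl-Ab libraries, 5.44. The part of depth in its flagged values was not tested. Scl-Ab number 13 had Bhlhe40 at 57.9, where the others lay at 31.1 to 43.0.

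Vehicle number 5 had Clock at 21.3, where the other 8 vehicle libraries lay at 8.87 to 14.9, and Npas2 at 16.8, where they lay at 1.84 to 7.88. It also had Crybg3 at 14.1 (others 7.20 to 10.5), Ppp1cb at 135 (others 76.8 to 98.1) and Tbl1x at 41.2 (others 33.7 to 37.3). Vehicle number 1 had Csnk1e at 18.8 (others 20.5 to 21.2), and vehicle number 7 had Hsf1 at 21.4 (others 15.2 to 18.3).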

How the results depend on the processing

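Of 1070 alternative values of the 30 log2 differences of the clock genes, 1067 moved by less than the spread between libraries, and 3 moved further: Arntl (-1.06), Npas2 (-0.94) and Per3 (0.99) for Scl-Ab against vehicle in code range 12 to 15 alone. Each difference had 34 or 39 alternatives, and 29 of them left out 1 library. Leaving out 1 library moves a group mean only by a part of that spread, so the count of 1067 was largely fixed in advance. No called difference changed sign. The number of genes called for Scl-Ab against vehicle was 1005, and it was 447 with no filter, 369 with equal sums per library, 309 with a fit of the 2 groups and 348 with code range as a term; how many of the 1005 were among them was not counted. Leaving out 1 library gave 547 to 1223 (547, 628 and 607 without vehicle numbers 2, 5 and 6), 6850 to 7663 for vehicle against WT and 6382 to 7674 for Scl-Ab against WT. The share of calls that were higher was 35.4%, against 65.0% with equal sums, for Scl-Ab against vehicle; with TMM it was 53.9% against 42.2% for vehicle against WT and 54.4% against 39.4% for Scl-Ab against WT. Clock network genes called for Scl-Ab against vehicle numbered 14, and 9 with no filter or with equal sums. The calls of Arntl, Clock, Npas2, Per3 and Nr1d2 for Scl-Ab against vehicle were absent in code range 12 to 15 alone, and that of Clock also in 27 to 33. The causes were not tested. Depth limits Npas2 and Cry1 most.

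The groups share no replicate numbers, but 8 Scl-Ab and 8 vehicle titles share the last 2 digits of their code, and matching by these was added after seeing the data. Deviations from the group means had a correlation over 0.1 across genes in 2 of the 8 pairs (range -0.54 to 0.62), and 2 of the 8 Scl-Ab libraries correlated best with their own code. The labels do not give the meaning of the shared digits. With 8 pairs and no reference for these correlations, whether the libraries are pairs cannot be decided. In these 16 libraries limma called 180 genes and 7 network genes without a block. With the code as a replicate block limma called 7 genes and 0 network genes, with 2031 and 18 at an unadjusted p under 0.05. The log2 differences of the clock genes were equal with and without the block (Arntl -1.69, Per3 1.50), and the 5 clock genes called without it were not called with it.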
